A study of Mus musculus with 40 samples.

Results

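The fragments described here came from hemogenic endothelium 1 (HE1), the first of the endothelial stages in an enhancer screen of mouse blood development, and the question was how fragments from reporter-positive cells differed from those of reporter-negative cells. They were chosen by the stage in the library title, which gave 8 of the 40 libraries of the series, with 185895 of its 458486 fragment entries (40.5%) and 147996 of its 354627 different fragments. HE1 cells had been sorted by the brightness of a Venus-YFP reporter into 4 gates named Negative, Low, Medium and High, in 2 replicates. The positive set of a replicate pooled its High, Medium and Low libraries with each fragment counted once, and it was compared with the Negative library of the same replicate. All cells were derived from HM-1 mouse (strain 129/ola) embryonic stem cells, whose Hprt locus does not function until it is repaired by the incoming reporter, so that each cell carries a single construct at a single site. Open-chromatin fragments had been cut out with the Tn5 transposase from 5 stages, which were ES (embryonic stem cells), HB (hemangioblast-like), HE1, HE2 (hemogenic endothelium 2) and HP (hematopoietic progenitors), cloned before an HSP68 minimal promoter and Venus-YFP, and pooled over the stages before transfection. Before any filter, an HE1 library therefore lists what was carried by HE1 cells, whichever stage the fragment was cut from. The methods also describe keeping only fragments in open chromatin with an ATAC peak at the matching stage. Whether the lists had passed this filter is not stated. HE1 cells had been sorted as KIT+ TIE2+ CD41- cells from blast cultures of FLK1+ cells. These cultures were grown in serum with VEGF, IL-6 and conditioned medium, and no treatment set the HE1 libraries apart. The Negative gate had been set with a line that carries the minimal promoter alone. The labels do not say how many clones or cells stood behind a library, nor whether the replicates began from separate transfections, so the spread between them may be technical. The 4 gates of a replicate came from the same pool of cells. Because DNA was sequenced, no expression marker of endothelium could be checked in these libraries.

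Hemogenic endothelium is the specialised endothelium from which the first blood stem and progenitor cells arise, through a change of cell state called the endothelial-hematopoietic transition. Its cells express vascular genes such as those for VE-cadherin (Cdh5) and the VEGF receptor FLK1 (Kdr), and they depend on the transcription factors TAL1, GATA2 and FLI1, with RUNX1 rising as they turn towards blood. An enhancer is a stretch of DNA that binds such factors and raises transcription from a promoter at a distance, and a reporter placed behind a minimal promoter reads out this ability for a fragment taken from its own site.

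Regions were formed as runs of overlapping fragments of all 40 libraries, and the sequences of 6 of them show what such a region holds. For Gata2, Tal1 and Smad6, the region within 25000 bp of the gene with the most HE1 positive fragments was also positive in both replicates. The other 3, named by the gene with the nearest transcription start site, came first among the regions with a positive fragment in all 6 positive HE1 libraries. Each line gives the central 200 bases on the forward strand of the RefSeq copy of GRCm38 (mm10), and capitals mark matches to any of the 15 transcription factor motifs searched.
Gata2 region, chr6:88189738-88189937: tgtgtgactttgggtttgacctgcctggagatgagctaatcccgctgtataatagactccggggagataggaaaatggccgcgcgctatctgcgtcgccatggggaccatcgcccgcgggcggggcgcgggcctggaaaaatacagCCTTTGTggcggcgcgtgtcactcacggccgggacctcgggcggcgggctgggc
Tal1 region, chr4:115052777-115052976: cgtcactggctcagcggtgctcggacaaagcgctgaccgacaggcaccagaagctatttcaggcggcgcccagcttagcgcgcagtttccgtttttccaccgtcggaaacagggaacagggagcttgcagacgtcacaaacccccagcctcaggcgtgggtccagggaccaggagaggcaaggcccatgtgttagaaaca
Smad6 region, chr9:64045237-64045436: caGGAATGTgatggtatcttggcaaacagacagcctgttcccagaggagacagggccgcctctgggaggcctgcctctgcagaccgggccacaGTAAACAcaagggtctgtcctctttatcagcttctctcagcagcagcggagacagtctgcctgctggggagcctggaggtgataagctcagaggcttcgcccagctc
Pcmtd1 region, chr1:7397956-7398155: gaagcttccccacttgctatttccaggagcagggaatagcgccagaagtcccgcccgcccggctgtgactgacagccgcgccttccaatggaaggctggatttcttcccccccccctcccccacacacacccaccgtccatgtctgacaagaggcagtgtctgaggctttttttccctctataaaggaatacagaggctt
Zfp692 region, chr11:58302422-58302621: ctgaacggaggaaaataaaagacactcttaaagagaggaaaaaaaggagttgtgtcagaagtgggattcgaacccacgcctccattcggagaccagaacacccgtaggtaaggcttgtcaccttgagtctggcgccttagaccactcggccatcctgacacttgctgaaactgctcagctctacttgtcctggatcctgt
Fbxl22 region, chr9:66512026-66512225: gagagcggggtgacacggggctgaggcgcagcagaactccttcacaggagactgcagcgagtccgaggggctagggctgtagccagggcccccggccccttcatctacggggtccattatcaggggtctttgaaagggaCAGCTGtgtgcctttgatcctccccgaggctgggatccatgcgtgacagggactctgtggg

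The Gata2 window held 1 SOX match, the Smad6 window 1 TEAD and 1 forkhead (FOX) match, and the Fbxl22 window 1 E-box (EBOX) match. The Tal1, Pcmtd1 and Zfp692 windows held no match to these motifs. Of 34916 central windows of this length from regions with HE1 fragments, 50.8% held at least 1 of the 15 motifs, 8.73% a SOX, 6.71% a TEAD, 2.74% a FOX and 14.4% an EBOX match. A match is a run of letters and not a measured binding site.

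The libraries of the replicates differed in size and in their balance between gates. In replicate 1 the Negative library listed 41374 unique fragments, Low 15458, Medium 51146 and High 39123. In replicate 2 the same gates listed 2773, 31915, 2693 and 1413 fragments. Medium was the largest library of replicate 1, whereas Low held nearly all positive fragments of replicate 2. The positive sets numbered 101943 and 34809 fragments, and Negative fragments made up 28.9% and 7.38% of the positive and Negative fragments of their replicate. A fragment is listed once however many reads it had, so these numbers are the depth of the libraries, and the number of cells and the depth of sequencing behind them cannot be told apart.

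**Figure D1:**
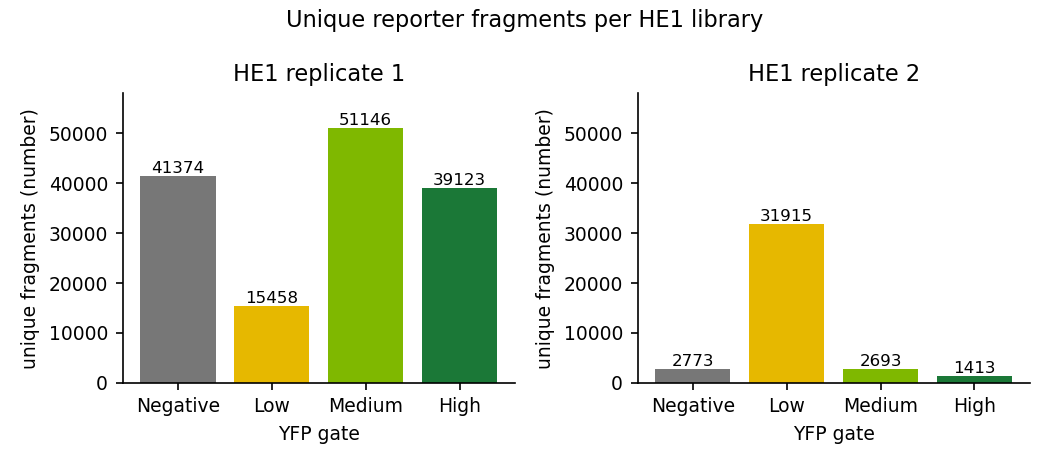
Number of unique reporter fragments (y axis from 0) in each HE1 library by YFP gate (x axis), replicate 1 at left and replicate 2 at right, with the number printed on each bar and 1 library per bar. Replicate 1 spreads over all gates, whereas in replicate 2 the Low library with 31915 fragments stands far above the others.

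Fragments often appeared in more than 1 gate, and this was so for most Negative fragments. In replicate 1 the Negative and Medium libraries shared 28868 identical fragments, which were 69.8% of the Negative library (69.3 to 70.2% as the 95% Wilson interval). Each of the remaining 5 pairs in that replicate shared 4.68% to 5.90% of the smaller library. In replicate 2 no such single pair stood out. There, Negative shared 47.9% of its fragments with Low, 24.8% of the Medium library and 9.98% of the High library were also in Negative, Low held 27.6% of the Medium and 31.9% of the High fragments, and Medium and High shared 7.86%. These intervals, like all others given here, cover counting error only, since fragments amplified by PCR without molecular identifiers are not independent molecules.

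Of the Negative fragments, 71.3% in replicate 1 (70.9 to 71.7%) and 55.8% in replicate 2 (53.9 to 57.6%) were also positive in the same replicate. Without the fragments identical in Negative and Medium of replicate 1, 12506 Negative, 22278 Medium and 73075 positive fragments were left there, and the share of Negative fragments that were also positive was 5.02% (4.65 to 5.42%). In replicate 2 the share was 26.6% when the Low library was not counted as positive. Counting the High gate alone as positive, it was 4.43% in replicate 1 and 5.08% in replicate 2. Most fragments were nevertheless seen in a single gate: 72.6% of the 113821 different fragments of replicate 1 and 94.1% of the 36035 of replicate 2. In all 4 gates there were 109 and 59.

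Sharing between the replicates was low except in 1 pair of libraries. The Negative library of replicate 1 and the Low library of replicate 2 had 1730 identical fragments, 5.42% of the Low library (5.18 to 5.67%). By number this was the most among all 400 pairs of libraries between the replicates of the whole series, of which the next shared 396. The other 15 HE1 pairs shared 0.222% to 2.26% of the smaller library, and the median of the 400 pairs was 0.403%. Fragments common to Negative of replicate 1 and Low of replicate 2 had a median length of 348 bp, against 151 bp for those common to Negative and Medium of replicate 1. They fell in 1234 regions. What these shared fragments trace back to was not tested.

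**Figure D2:**
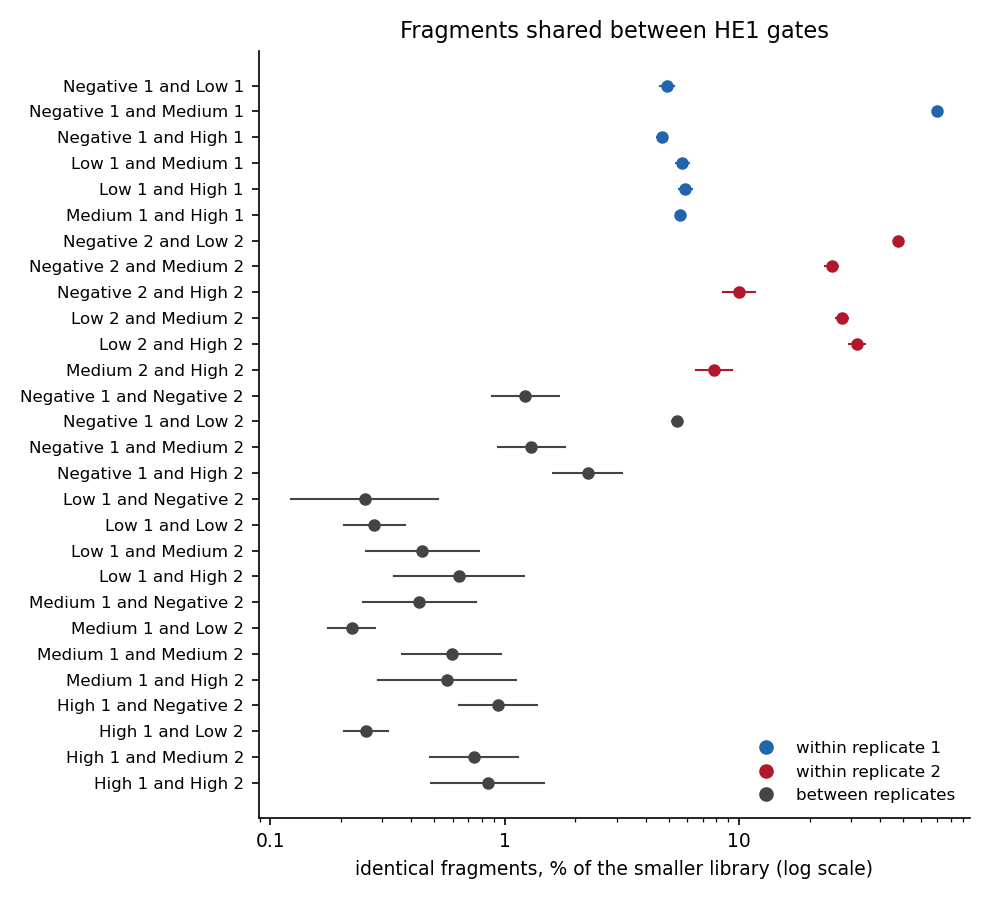
Identical fragments of 2 HE1 libraries as a percentage of the smaller library (x axis, log scale) for all pairs of HE1 libraries (rows, gate and replicate number), within replicate 1 (blue), within replicate 2 (red) and between replicates (grey), points with 95% Wilson intervals. Negative and Medium of replicate 1 stand at 69.8%, and Negative of replicate 1 with Low of replicate 2 stands at 5.42%, above the other grey points.

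The pair also decided how a fragment's gate compared between the replicates. HE1 of both replicates held 1860 identical fragments. Of these, 1632 were Negative only in replicate 1, and all 1632 were positive in replicate 2 (lower limit of the interval 99.8%), 24 of them in Negative as well. Of the 115 that were positive only in replicate 1, 106 (92.2%, 85.8 to 95.8%) were positive in replicate 2, and of the 113 that were both positive and Negative in replicate 1, 110 were. Without the fragments identical in Negative of replicate 1 and Low of replicate 2 there were 130 fragments in both replicates, and without the whole Low library of replicate 2 there were 145. Since Negative fragments were only 7.38% of the positive and Negative fragments of replicate 2, most fragments of any kind were positive there.

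HE1 fragments were found again at other stages of the same replicate in shares that also depend on the size of the other library set. In replicate 1, 6.57% of the HE1 positive fragments were positive in HE2 (68427 positive fragments), 4.91% in HP (39671), 3.86% in HB (38953) and 2.27% in ES (27717). In replicate 2 the shares were 10.1% for ES (9020), 10.2% for HB (12209), 4.98% for HE2 (3471) and 3.90% for HP (5208). The small Negative library of replicate 2 stood apart from this. Of its 2773 fragments, 52.0% were positive in HB, 46.1% in HE2, 37.2% in HP and 29.2% in ES of the same replicate. They were also in the Negative gates of those stages, with 32.7% in HB, 52.2% in HE2, 45.8% in HP and 22.7% in ES. Fragments of this library were thus commonly carried at other stages of the replicate, by reporter-positive and by Negative cells.

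Positive fragments were slightly shorter than Negative ones in replicate 1 and much longer in replicate 2. Median lengths in replicate 1 were 165 bp for Negative, 163 bp for Low, 150 bp for Medium and 149 bp for High, and in replicate 2 they were 212, 339, 199 and 212 bp. Low of replicate 2 was the long library, with 66.5% of its fragments at 300 bp or more, whereas the other 3 libraries of that replicate had 17.8% to 28.3% and those of replicate 1 had 5.70% to 9.60%. The median of positive minus Negative fragments was -12 bp in replicate 1 and 120 bp in replicate 2, a mean of 54 bp (exact permutation test over the 4 gates within each replicate, two-sided, 16 arrangements, p = 1). The smallest p that these arrangements allow is 0.063, so no comparison of this kind could pass 0.05. Without the Low library of replicate 2 the mean was -10.5 bp, and without the fragments identical in Negative and Medium of replicate 1 the remaining Negative fragments there had a median of 196 bp.

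**Figure D3:**
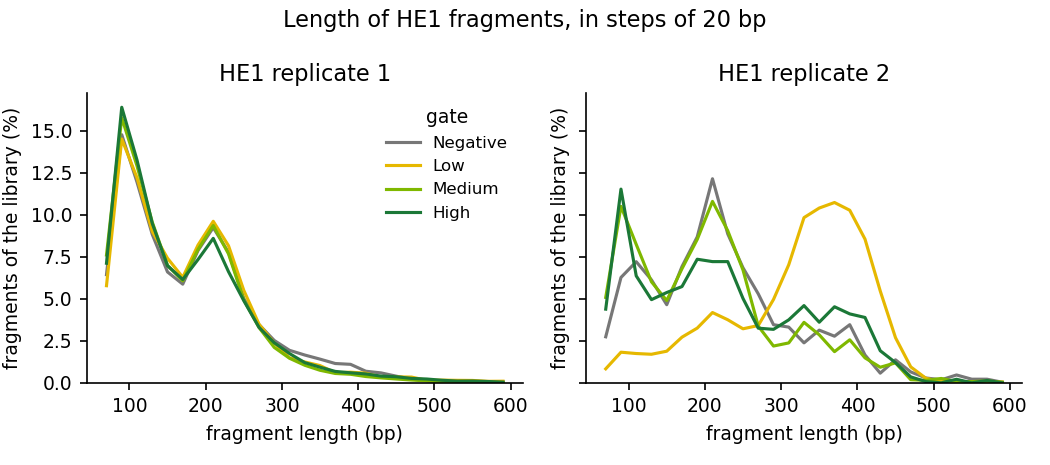
Share of fragments of each HE1 library (%, y axis) by fragment length in steps of 20 bp (x axis), 1 line per YFP gate, replicate 1 at left and replicate 2 at right. The gates of replicate 1 run nearly on top of each other, whereas Low of replicate 2 peaks near its median of 339 bp and the other gates of that replicate do not.

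The base composition and the position of positive and Negative fragments were close. Mean GC content in replicate 1 was 55.1% for Negative and 55.2% for positive fragments, and in replicate 2 it was 50.9% and 48.9%. The difference was 0.11 and -1.97 percentage points (mean -0.93, exact permutation p = 0.1875), and without the Low library of replicate 2 the mean was -0.42 (exact permutation p = 0.5). The median distance to the nearest start site was 17770 bp for Negative and 17551 bp for positive fragments of replicate 1, and 22744 bp and 24638 bp in replicate 2 (mean difference 837.5 bp, p = 0.4375 by the exact permutation test). Without Low of replicate 2 that mean difference was 1410.25 bp. Centres in introns made up 44.9% of Negative and 44.7% of positive fragments in replicate 1, and 47.4% and 45.0% in replicate 2. That share was lower among positive fragments in both replicates (differences of -0.24 and -2.49 percentage points, exact permutation p = 0.1875). In all HE1 libraries at most 2.06% of fragments lay within 1500 bp of an annotated start site. The methods set fragments within this distance apart as promoter fragments, so the low share cannot be read as a trait of HE1.

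HE1 positive fragments were also set against the mean of the positive sets of the other 4 stages. Their GC content was lower in both replicates, with differences of -0.99 and -1.31 percentage points (exact permutation test over the 5 stages within each replicate, 25 arrangements, two-sided p = 0.08). In replicate 1 HE2 was lower still, at 55.0% against 55.2% in HE1, and the remaining stages had 56.0% to 56.9%. In replicate 2 the other stages had 50.0% to 50.5%, and of the HE1 gates Low and High had 48.9% each and Medium 50.5%. Median length differed by -12.5 and 125.75 bp (p = 0.16 by the same exact test), distance to a start site by 1504.25 and 1037.38 bp (exact p = 0.32), and the intron share by 2.17 and -1.45 percentage points (exact p = 0.84). The smallest p here is 0.04, and none of these differences passed 0.05.

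By region, nearly every region with HE1 fragments held at least 1 positive fragment. HE1 fragments fell in 40870 of the 75060 regions of the series, and 39786 of these had a positive fragment. In replicate 1, 19241 regions were positive, of which 14175 also held Negative fragments, and 455 regions (2.31%) were Negative only. In replicate 2, 22833 regions were positive, 1443 of them with Negative fragments too, and 789 (3.34%) were Negative only. Of the regions with a Negative fragment, 96.9% in replicate 1 and 64.7% in replicate 2 were therefore positive as well. A region with more fragments had more chances to be listed in any gate, and the Negative library of replicate 2 was small. Positive sets pooled 3 gates against the Negative gate alone, and in replicate 2, 79.6% of positive regions held 1 positive fragment. The share of Negative only regions expected from these numbers was not computed.

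Few regions were seen in both replicates. A positive fragment in both was found in 2288 of the 39786 positive regions, or 5.75% (5.53 to 5.98%), and these were 11.9% of the positive regions of replicate 1 and 10.0% of those of replicate 2. Without the fragments shared by Negative of replicate 1 and Low of replicate 2 the share was 3.90%, and without the Low library of replicate 2 it was 2.13%. Among the 1396 regions with at least 20 HE1 fragments, 43.3% were positive in both. The number of positive HE1 libraries that held a region was 1 for 25213 regions, 2 for 7433, 3 for 5840, 4 for 1146, 5 for 142 and 6 for 12.

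The gates of replicate 1 overlapped by region far more than those of replicate 2. In replicate 1, 30.6% of the positive regions were found in 1 positive gate, 36.6% in 2 and 32.8% in all 3, and the median positive region held 4 positive fragments. In replicate 2 these shares were 95.1%, 4.55% and 0.399%, the median was 1 fragment, and 86.6% of the positive regions were positive through Low alone. Of the HE1 positive regions of replicate 1, 74.4% were also positive in HE2, 52.6% in HP, 42.9% in HB and 33.6% in ES, and 16.5% in no other stage of the replicate. In replicate 2 these shares were 7.48%, 6.18%, 15.3%, 14.8% and 76.7%. The order of the stages differed between the replicates, as did the sizes of their positive sets given above.

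Of the 12 regions positive in all 6 HE1 libraries, the 10 with the most positive fragments lay nearest the starts of Pcmtd1, Zfp692, Fbxl22, 1700055C04Rik (the region within 25000 bp of Smad6), B4galnt1, Rnu3b1, Hif1a, Nek6, Foxo6 and 1600015H23Rik. The region nearest Pcmtd1 lay between genes, 309136 bp downstream of the start of that gene. It held 18 Negative, 7 Low, 17 Medium and 20 High fragments in replicate 1, and 0, 1, 1 and 1 in replicate 2. The region nearest Zfp692, a zinc finger gene, held 17, 3, 17 and 16 in replicate 1 and 1, 10, 1 and 1 in replicate 2. Both regions also held Negative fragments in replicate 1, whereas their presence in the positive gates followed from the way they were chosen. Their totals of positive fragments, 45 in each, were close to the 45.2 and 47.2 expected from the share of Negative fragments of each replicate.

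Hif1a encodes the oxygen-regulated subunit of HIF1. The region whose nearest start was that of Hif1a, at chr12:73790376-73791050 and 110611 bp upstream of it, held 4 Negative, 3 Low, 10 Medium and 1 High fragment in replicate 1 and 1, 1, 7 and 2 in replicate 2. Over the 10 regions the observed positive fragments were 0.862 to 1.05 times the number expected, and none had an adjusted p under 1. The 10 regions thus held positive fragments in about the number expected. A depletion of Negative fragments was hard to detect, since these were only 28.9% and 7.38% of the positive and Negative fragments of their replicate.

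When positive and Negative fragments were compared region by region, 8 regions had fewer positive fragments than the shares of their replicate predict, and none had more. This was 0.573% of the 1396 regions tested in the first direction and 0% in the other (Cochran-Mantel-Haenszel test with the replicates as strata, Benjamini-Hochberg adjusted p under 0.05), with 31 regions at an unadjusted p under 0.05. A call towards more positive fragments was hard to reach, since Negative fragments were only 28.9% and 7.38% of those of their replicate. The 8 lay in introns, nearest the starts of Impg1, Gtf3c4, Tbx1, Dlgap3, Stx3, Gsg1l, Gm29797 and Supt4a. Their p-values count fragments and not samples, and the excess of Negative fragments came from a single replicate in each of the 8.

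In 4 of the 8, that replicate was the second. The region nearest Impg1, a gene of the retinal matrix, at chr9:80388330-80388735, had 16 Negative and 6 Low fragments in replicate 2 and none in replicate 1, with 20.4 positive fragments expected in all (adjusted p = 1.5e-26 by the Cochran-Mantel-Haenszel test). The region nearest Tbx1, a T-box factor of the pharynx and heart, at chr16:18544431-18544664, had 10 Negative, 2 Low and 12 Medium fragments in replicate 2 and none in replicate 1. The region nearest Dlgap3, a postsynaptic scaffold gene, at chr4:127202786-127202934, had 10 Negative, 8 Low, 13 Medium and 9 High fragments in replicate 2. All 10 of its Negative fragments were also positive in that replicate, as were 9 of the 10 nearest Tbx1, 9 of the 10 nearest Gsg1l and 6 of the 16 nearest Impg1.

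In the other 4, the Negative fragments were those of replicate 1 and the positive ones mostly those of Low in replicate 2. The region nearest Gtf3c4, a subunit of the RNA polymerase III factor TFIIIC, at chr2:28793049-28793449, had 34 Negative, 0 Low, 0 Medium and 1 High fragment in replicate 1 and 31 Low fragments in replicate 2, of which 24 were identical to a Negative one. The region nearest Stx3, a membrane fusion protein gene, had 28 Negative, 1 Medium and 1 High fragment against 26 Low fragments in replicate 2, and 26 were identical. Near Gm29797 there were 17 Negative and 30 Low fragments with 16 identical, and near Supt4a, a transcription elongation factor gene, there were 21 and 16 with 11 identical. The same fragments were thus Negative in replicate 1 and Low in replicate 2. Without the fragments that these libraries share, 4 regions were called.

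The fragments behind these calls were often near copies of each other. Where fragments whose ends lay within 5 bp were counted once, the 16 Negative fragments nearest Impg1 became 5, the 34 nearest Gtf3c4 became 14 and the 28 nearest Stx3 became 10, and 0 of 1214 regions were called (9 at an unadjusted p under 0.05 by the Cochran-Mantel-Haenszel test). With the fragments identical in Negative and Medium of replicate 1 left out, 505 regions were tested and 15 were called, all with fewer positive fragments, which included the 8 above.

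The 5 regions with the lowest p towards more positive fragments did not pass the threshold. They were led by Medium of replicate 1 and had no fragment in replicate 2. Nearest Adam19, a metalloprotease gene, there were 5 Negative, 1 Low, 49 Medium and 0 High fragments (39.1 positive fragments expected, adjusted p = 0.31 by the Cochran-Mantel-Haenszel test). Nearest Igfbp2, an insulin-like growth factor binding protein gene, there were 3, 0, 37 and 0, and nearest Dock6, an exchange factor for small GTPases, 12, 5, 60 and 6. Mir7036b and Col18a1, a basement membrane collagen gene, followed with 20 and 31 positive fragments against 1 and 4 Negative ones. Counted once per near copy, the 49 Medium fragments nearest Adam19 became 22 and the 37 nearest Igfbp2 became 23. Even a region without Negative fragments could miss the threshold. With the fragments identical in Negative and Medium of replicate 1 left out, the region nearest Dock6 had 55 positive and 0 Negative fragments. This was 1.17 times the number expected (adjusted p = 0.11 by the Cochran-Mantel-Haenszel test).

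Motif content did not separate positive from Negative HE1 fragments in these tests. Matches were counted on both strands per kb of fragment sequence for AP-1 (TGACTCA), TEAD (GGAATGT or GGAATGC), SOX (ACAATGG or ACAAAGG), ETS (CAGGAAGT or CCGGAAGT), PU.1 (GAGGAAGT), GATA factors (AGATAAG), RUNX (TGTGGTT or TGTGGTC), RBPJ (GTGGGAA), FOX (TGTTTAC), EBOX (CAGCTG), CREB (TGACGTCA), STAT (TTCCNGGAA), OCT (ATGCAAAT), CEBP (TTGCGCAA) and CTCF. The AP-1 and CREB patterns differ by a single inserted base and the PU.1 pattern is itself of the ETS type, so these are not independent factors. Of the 15 motifs, 0 had an adjusted p under 0.05 and 0 an unadjusted p under 0.05 by the exact permutation test, which with its 16 arrangements could not pass it. In both replicates 3 motifs were more frequent and 4 less frequent in positive fragments. These numbers were 2 and 7 when overlapping fragments were merged first, and 0 and 3 for the share of fragments with a match, so the tally depended on the measure.

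AP-1, bound by FOS and JUN proteins, had the largest change between replicates. Its matches per kb were 0.62 in Negative, 0.62 in Low, 0.67 in Medium and 0.61 in High of replicate 1, and 0.36, 0.20, 0.28 and 0.28 in replicate 2. Positive minus Negative was 0.02 in replicate 1 and -0.16 in replicate 2 (exact permutation p = 0.1875). In replicate 1 without the fragments identical in Negative and Medium the difference was 0.12 per kb. Without the fragments shared by Negative of replicate 1 and Low of replicate 2 it turned to -0.015 in replicate 1. With both of these sets of shared fragments left out, the difference in replicate 1 was 0.0597. In replicate 2 it was -0.076 without the Low library, so its size there rested in part on that library.

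TEAD, the DNA-binding partner of the Hippo pathway, had 0.41 matches per kb in Negative and 0.41 in positive fragments of replicate 1, and 0.28 and 0.29 in replicate 2 (exact permutation p = 0.75). SOX had 0.50 and 0.50 in replicate 1 and 0.33 and 0.38 in replicate 2 (exact permutation p = 0.1875). For RUNX the values were 0.45 and 0.46, then 0.39 and 0.39, with an exact permutation p of 0.81. GATA had 0.30 in Negative and 0.29 in positive fragments of replicate 1, and 0.14 and 0.16 in replicate 2, while ETS had 0.36 and 0.35, then 0.18 and 0.12. The ETS difference in replicate 2 was -0.063 per kb with the Low library and -0.0042 without it. Without the fragments identical in Negative and Medium of replicate 1, SOX and TEAD there were higher in positive fragments by 0.043 and 0.041 per kb. Counting near copies once turned the differences of RUNX and GATA in replicate 2 to -0.012 and -0.0013. The differences between replicates were larger than those between positive and Negative fragments for each of these 5 motifs.

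**Figure D4:**
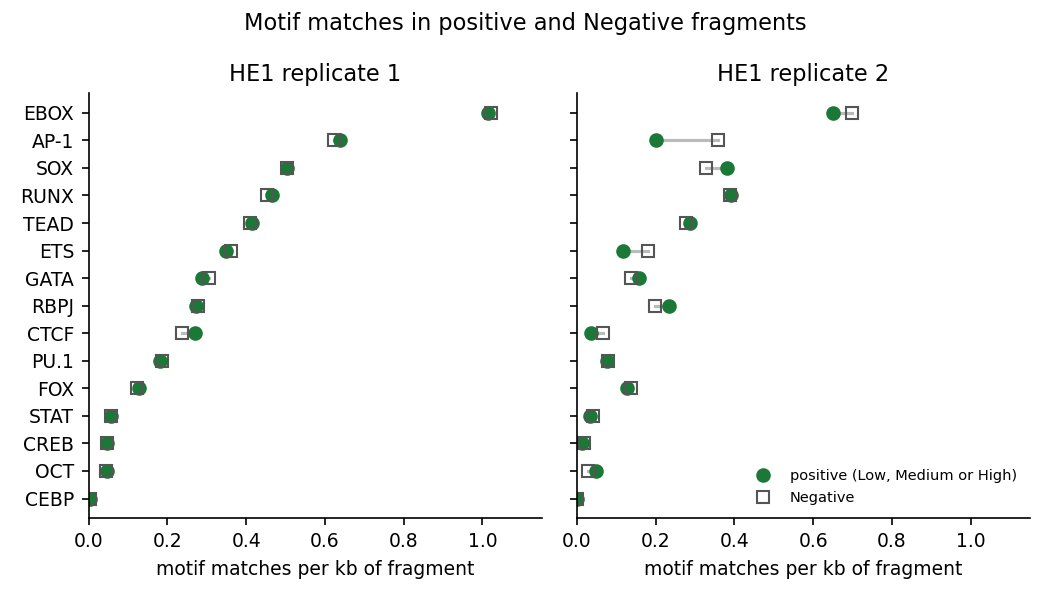
Motif matches per kb of fragment sequence (x axis, from 0) in positive (green circles) and Negative (open squares) HE1 fragments for 15 motifs (rows), replicate 1 at left and replicate 2 at right, 1 value per set. Circles and squares nearly coincide in replicate 1, while in replicate 2 AP-1 stands at 0.20 in positive and 0.36 in Negative fragments.

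Against the other 4 stages, 0 of 15 motifs in HE1 positive fragments passed an adjusted p of 0.05 by the exact permutation test, and 0 had an unadjusted p under 0.05. CTCF, a factor that organises chromatin loops, was lower in HE1 than in the mean of the other stages in both replicates, with differences of -0.06 and -0.03 matches per kb (exact permutation p = 0.16). Its level in HE1 positive fragments was 0.27 per kb in replicate 1, against 0.35 in ES, 0.33 in HB, 0.26 in HE2 and 0.37 in HP, and 0.04 in replicate 2, against 0.06, 0.08, 0.05 and 0.08. When overlapping fragments were merged first, the differences were -0.09 and -0.04 per kb (exact permutation p = 0.04, the smallest these arrangements allow, adjusted p = 0.6). In replicate 1 HE2 was at about the level of HE1 with the other stages above both, whereas in replicate 2 all 4 other stages were above HE1. In that replicate the HE1 gates had 0.04 in Low, 0.07 in Medium and 0.03 in High.

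The loci of known regulators of hemogenic endothelium were carried mainly in replicate 1. Runx1 was an exception. Its gene with 25000 bp on each side held 12 Negative, 4 Low, 11 Medium and 10 High fragments in replicate 1, and 1, 34, 5 and 0 in replicate 2. The region with the most, at chr16:92611115-92611486 in an intron 15153 bp upstream of the start of Gm30224, had 19 Low fragments of replicate 2 and no other HE1 fragment. Of the 20 positive regions of the locus, 1 was positive in both replicates and none was Negative only.

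For Gata2, Tal1 and Fli1, which encode factors at the core of this network, the gates of replicate 1 were Negative 10, Low 4, Medium 15 and High 13 fragments at Gata2, then 15, 8, 10 and 8 at Tal1 and 4, 0, 4 and 7 at Fli1. Replicate 2 added 3 Negative and 3 Low fragments at Gata2, 8 Low at Tal1, and 7 Low and 2 Medium at Fli1. Erg, the other ETS factor, had none in replicate 1, and 2 Negative and 2 Low fragments in replicate 2. The region whose sequence is printed for Gata2, 4053 bp upstream of its start, held 7 Negative, 2 Low, 11 Medium and 9 High fragments in replicate 1 and 1 Low fragment in replicate 2, and that for Tal1, 3549 bp upstream, held 9, 3, 7 and 2 with 2 Low fragments in replicate 2.

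Endothelial loci gave almost only replicate 1 fragments. Cdh5 had 16 Negative, 4 Low, 22 Medium and 11 High fragments there and 1 Low fragment in replicate 2. Kdr had 12, 7, 19 and 11 and then 1 Negative fragment. Tek, the gene of the sorting marker TIE2, had 4, 2, 6 and 6 and then 1 Low fragment, and Sox17 had 8, 2, 6 and 6 and none in replicate 2. A count of 0 allows up to 3 fragments. Counted by nearest start site within 100000 bp, Sox17 had 36 positive fragments in replicate 1 and 3 in replicate 2, with 1 region positive in both.

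Of the signalling loci, Notch1 had 27 Negative, 9 Low, 28 Medium and 8 High fragments in replicate 1 and 0, 33, 1 and 0 in replicate 2. Tead1 had 34, 11, 47 and 38, the most of the 13 loci in replicate 1, and 14 Low fragments in replicate 2, with 4 of 18 positive regions positive in both. Smad6, an inhibitor of BMP signalling, had 32, 13, 40 and 16 and then 3, 11, 5 and 1, with 3 of 15 positive regions in both, and the region with the most fragments was positive in all 6 libraries. Spi1, the gene of the myeloid factor PU.1, had 16, 4, 13 and 11 and then 2 Low fragments. Negative fragments were 22.2% to 40% of those at the 12 loci with fragments in replicate 1, around the 28.9% of the replicate as a whole.

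**Figure D5:**
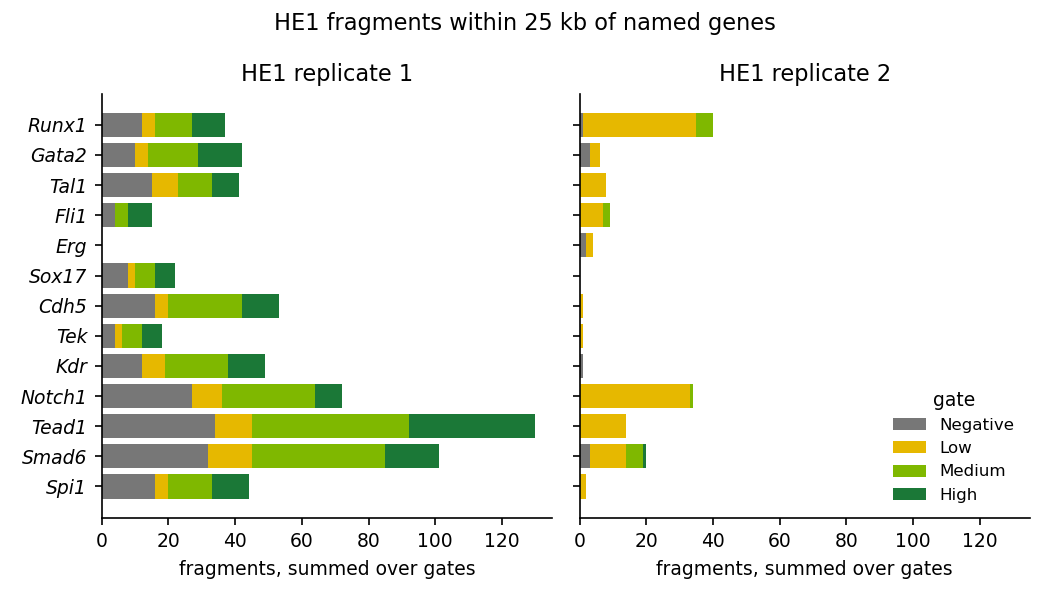
HE1 fragments within 25000 bp of 13 named genes (rows), stacked by YFP gate (x axis, number of fragments from 0, a fragment found in several gates counted in each), replicate 1 at left and replicate 2 at right. Tead1 has the most in replicate 1, and in replicate 2 the loci of Runx1 and Notch1 stand out with 34 and 33 Low fragments.

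For a test per gene, fragments were assigned to the nearest start site within 100000 bp. No gene differed between positive and Negative fragments in HE1: 0 of 2475 genes tested were called (0%), with 53 at an unadjusted p under 0.05 (limma voom across all stages with the sort as a block, 5 residual degrees of freedom). The lowest adjusted p was 0.83. The median fitted log2 difference over all genes was -0.48, and single genes are to be read against this median, since the Negative library of replicate 2 was shallow. The effect itself was also compared with that of the other 4 stages, with 0 of 2475 genes called (0%), 18 at an unadjusted p under 0.05 and a median log2 difference of -0.20.

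The genes with the lowest p did not pass the threshold. Lowest towards Negative was Impg1, with 0 fragments in replicate 1 and 16 Negative and 11 Low fragments in replicate 2 (log2 difference -3.31 ± 0.87 SE, limma adjusted p = 0.83), followed by Tbx1, Dlgap3, Mrps18a (12 Negative and 14 positive fragments in replicate 1) and Mesp1 (6 and 9). Mesp1 encodes a factor of early mesoderm. Lowest towards positive was Cistr, with 3 Negative, 5 Low, 6 Medium and 7 High fragments in replicate 1 and 0, 29, 2 and 0 in replicate 2 (log2 difference 1.61 ± 0.80 SE, limma adjusted p = 0.98). Grin2c, a glutamate receptor subunit gene, Lrba, Stum and 4930474N09Rik followed, with log2 differences of 1.70, 1.88, 1.45 and 1.40. In the comparison of the effect with the other stages, the lowest p values towards positive were those of Vcl, Grin2c, Parp14, Tyrobp and Syne1, and towards Negative those of Impg1, Gm9222, Gm41414, Tbx1 and Wipf2, with limma adjusted p of 1.00 for all.

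The count of genes rested on the replicates. With replicate 1 of HE1 left out, 63 genes could be tested and 6 were called by limma, all with fewer positive fragments (Dlgap3, Gsg1l, Impg1, Myo18a, Tbx1 and Tspan18), and 5 of 63 were called in the comparison with the other stages. In that fit the lone HE1 replicate is assumed to vary as the other stages do. Impg1, Tbx1, Dlgap3 and Gsg1l are the genes of 4 of the 8 regions above.

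Positive fragments of HE1 were then compared with those of the other 4 stages, gene by gene. No gene was called among 1711 (0%), with 83 at an unadjusted p under 0.05 and a median log2 difference of -0.04 (limma voom with the replicate in the design, 4 residual degrees of freedom). Among the genes with the lowest p towards HE1, Ppy had 44 and 14 positive fragments in HE1 and 1 to 6 elsewhere, and Smim14 had 21 and 15 against 0 to 5. Tyrobp, an adaptor of myeloid receptors, had 16 and 7 against 9 and 0 in HE2, 1 and 0 in HP and none in ES or HB. Its 7 fragments of replicate 2 were all High, and 35 of the 44 of Ppy were in Medium. These are raw counts, and HE1 had the largest positive sets, with 101943 and 34809 fragments. The other stages had 27717 to 68427 in replicate 1 and 3471 to 12209 in replicate 2. The fitted log2 differences are relative to the size of each set, and the counts here and below are not.

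Lowest towards the other stages was Espn, with 32 and 4 positive fragments in HE1 and 24 and 1 in ES, 39 and 2 in HB, 33 and 0 in HE2 and 28 and 1 in HP (log2 difference -1.13 ± 0.36 SE, limma adjusted p = 0.86). Egln3, an oxygen-dependent hydroxylase of HIF, Mirlet7a-1, Gm11210 and Mxi1 followed, with log2 differences of -1.15, -1.25, -1.35 and -1.50. Single libraries decided whether genes passed. Without the Low library of replicate 2, 2 of 1426 genes were called, Clip1 and Tyrobp, both higher in HE1 (limma adjusted p = 0.048 and 0.035). Without replicate 2 of HE1, 15 of 1394 were called, all higher in HE1, Adam19, Igfbp2 and Dock6 among them.

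Genes of 13 lists for blood, endothelial and control lineages were counted in the same way. Of all 26180 annotated genes, 32.3% had at least 1 HE1 positive fragment in replicate 1, 40.5% in replicate 2 and 20.8% in both. No member of any list was called in any of the comparisons, so what follows gives counts of fragments and medians beside those of all genes. Where a gene has a fragment says which start site is nearest and not which promoter the fragment acts on in its own place.

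Of the transcription factors of hemogenic endothelium, 18 of 20 genes had positive fragments in replicate 1, 15 in replicate 2 and 14 in both. Ets1 had 39 Negative, 14 Low, 41 Medium and 31 High fragments in replicate 1 and 1, 3, 1 and 0 in replicate 2. Meis1 had 22, 11, 35 and 28 and then 1, 1, 1 and 0. Runx1, counted by nearest start site, had 17, 7, 13 and 13 and then 1, 13, 4 and 0. The median log2 difference of positive minus Negative over the 12 members tested was -0.54, beside -0.48 for all genes. In HE1 positive fragments the list took 47.2 and 25.9 of every 10000 in the replicates, against 36.2 and 25.5 in ES, 50.8 and 28.6 in HB, 54.8 and 54.6 in HE2 and 50.5 and 46.2 in HP.

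Genes of endothelial junctions and surface had positive fragments in replicate 1 for 14 of 18 members, in replicate 2 for 8 and in both for 6. Egfl7, a protein secreted by endothelium, had 51 Negative, 11 Low, 68 Medium and 32 High fragments in replicate 1 and 2 Low fragments in replicate 2. Cdh5 had 17, 4, 22 and 11 and then 2 Low fragments, and Pecam1, an adhesion molecule of endothelial contacts, had 5, 4, 5 and 10 and then 3 Low and 1 High fragment. The share of the list in replicate 1 was 31.5 of every 10000 positive fragments in HE1, 35.0 in HE2, 23.6 in HP, 21.3 in HB and 14.6 in ES. In replicate 2 it was 7.10 in HE1, 17.1 in HE2, 30.0 in HP, 4.94 in HB and 8.06 in ES, so HE1 did not hold the same place among the stages in both replicates.

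VEGF ligands and receptors had positive fragments in both replicates for 7 of 9 genes. Among the receptors, Nrp2 had 26 Negative, 9 Low, 38 Medium and 29 High fragments in replicate 1 and 2 Low fragments in replicate 2, Kdr 24, 12, 31 and 19 and then 1 Negative and 3 Low, and Flt1 14, 5, 14 and 15 and then 7 Low. The list's median log2 difference of positive minus Negative was -0.20 over 5 genes tested. In the Notch and arterial list 10 of 20 genes were positive in both replicates. Unc5b, a receptor of vessel guidance, had 50 positive fragments in replicate 1 and 21 in replicate 2, Acvrl1, a BMP receptor of arteries, had 42 and 4, and Notch1 had 12 and 28.

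In the Hippo and TEAD list 9 of 17 genes were positive in both replicates, led by Tead1 with 70 and 9 positive fragments, the TEAD target Ccn1 with 51 and 1, and Amotl2, an inhibitor of YAP, with 43 and 5. In the AP-1 family 7 of 13 were positive in both. Fos had the most of all genes named from the lists, with 57 Negative, 21 Low, 72 Medium and 53 High fragments in replicate 1 and 2, 7, 1 and 0 in replicate 2. Junb had 43 and 2 positive fragments. Fosl2 went the other way, with 9 in replicate 1 and 30 in replicate 2, 27 of them in Low, and its log2 difference from the other stages was 1.61 ± 0.54 SE (limma adjusted p = 0.86). In the BMP and TGF-beta list 7 of 23 were positive in both replicates, with Smad3 at 57 and 8, Smad6 at 45 and 12 and Smad1 at 22 and 11 positive fragments.

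Basement membrane and adhesion genes had positive fragments in 15 of 17 members in replicate 1, 14 in replicate 2 and 13 in both. Sparc had 17 Negative, 11 Low, 32 Medium and 29 High fragments in replicate 1 and 1 Low and 1 Medium in replicate 2, Hspg2, which encodes perlecan, 32, 11, 34 and 24 and then 5 Low, and Col4a2, a basement membrane collagen, 14, 8, 30 and 19 and then 1 Low. This list took 39.8 and 19.9 of every 10000 positive fragments in HE1, beside 33.1 and 16.1 in ES, 28.2 and 16.8 in HB, 37.4 and 6.83 in HE2 and 28.2 and 6.93 in HP. Of its 56 positive fragments in HE1 of replicate 2, 20 were Low fragments of Nid1, a basement membrane linker gene, all in 1 region and with none in replicate 1, so that a single gene and library carried much of the HE1 value there. Its median log2 difference of HE1 from the other stages was 0.23 over 10 genes, 7 of them above 0, beside -0.04 over all genes, and none was called.

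Among blood progenitor genes 12 of 20 were positive in replicate 1, 11 in replicate 2 and 7 in both, with Vav1 at 65 and 4, the repressor Gfi1 at 33 and 6 and Itga2b, the gene of CD41, at 30 and 0 positive fragments. For Itga2b, 0 fragments were found in any gate of replicate 2, whose positive set had 34809 fragments against 101943 in replicate 1. The libraries list inserted DNA, so these counts say nothing about CD41 on the sorted cells.

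Lists of other lineages were not absent. Of pluripotency genes 8 of 14 were positive in both replicates, with Klf4 at 31 and 2, Klf2 at 29 and 1 and Esrrb at 23 and 7 positive fragments. Cardiac and mesoderm genes were positive in both for 8 of 14 (Hand1 28 and 11, Gata4 13 and 9, T 16 and 1) and smooth muscle genes for 5 of 9 (Smtn 88 and 2, Des 5 and 3, Cnn1 7 and 0). Of 12 neuronal genes, 5 were positive in replicate 1 and 11 in replicate 2, with Dlg4 at 53 and 8, Rbfox3 at 18 and 14 and Neurod1 at 24 and 6. The neuronal list took 13.2 and 27.3 of every 10000 positive fragments in HE1, beside 6.94 and 13.4 in ES, 12.7 and 14.8 in HB, 11.5 and 20.5 in HE2 and 10.6 and 13.9 in HP. Its 4 tested members had a median log2 difference of 0.47 from the other stages, all 4 above 0 and none called.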

How the data were processed

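Members, gene lists and tests were chosen with earlier results of these data known. The 8 HE1 libraries were compared by gate, and the other 32 served as other stages. Per the methods, the authors removed adapters from read pairs (Trim Galore), mapped these with Bowtie2 to the mm10 build (fragments up to 600 bp), kept pairs with a mapping quality over 40 and reduced repeated fragments to 1, with SAMtools, bedtools and HOMER also named in the submitters' processing notes (versions not given in the sources used here). The insert had been amplified by PCR without molecular identifiers. The methods describe removal of a background library, a limit to open chromatin with an ATAC peak at the matching stage, and a split into distal and promoter fragments. They do not say which of these filters the lists had passed. The deposited values are fragment coordinates (bp), with no read count, signal, score or other measured value per fragment, so each fragment counts as 1 and library depth is 1413 to 51146 fragments. No column of another series was used.

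Sequence and gene models (exons, introns and start sites) were those of RefSeq GRCm38. Each fragment was located at its midpoint (scaffold fragments left out). Positive sets were pooled from High, Medium and Low. Feature and motif values were tested by two-sided exact permutation of the gate within replicates. Regions with at least 20 HE1 fragments were tested by a Cochran-Mantel-Haenszel test (statsmodels 0.14.6, SciPy 1.17.1) and genes with at least 20 by limma voom 3.58.1 in R 4.3.3, both after checks on simulated data, with Benjamini-Hochberg adjustment over all features. Intervals are Wilson intervals at 95%. Feature and motif tests against Negative took the gate as the sample, and the region test counted fragments. Gene tests took the positive sets of the sorts (a stage in 1 replicate each), with their Negative libraries where these were compared. Called regions were named (at most 10 in a direction by lowest adjusted p), or the 5 with the lowest p where fewer than 5 were called. From each list the 3 genes with the most positive fragments were named, along with 13 loci and the 10 regions positive in the most libraries. A gene that this rule names is not reported here. Results were recomputed with High alone as positive, near copies within 5 bp counted once, other minimums, each replicate left out, no replicate block, and without shared fragments. The gates of a replicate were sorted from the same cells, so the replicate number pairs them. They shared 4.68% to 69.8% of fragments within a replicate and 0.222% to 5.42% between replicates.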

Additional observations from a re-analysis of the deposited data

Results flagged for a closer look

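In 6 comparisons, positive minus Negative went one way in both HE1 replicates and the other way in both replicates of another stage. These differences were not tested, and with 2 replicates a stage some of the many comparisons made will run opposite by chance. The share of fragments centred in introns differed by -0.24 and -2.49 percentage points in HE1 and by 0.37 and 2.40 in ES, so that HE1 minus ES was -2.75. RUNX matches per kb differed by 0.0112 and 0.00378 in HE1, by -0.0363 and -0.0414 in HB and by -0.0418 and -0.0319 in HP, which put HE1 above HB by 0.0463 and above HP by 0.0443 per kb. The sign in HE1 of replicate 2 turned with near copies counted once (-0.0117) and on merged fragments (-0.0142), and that of replicate 1 without both sets of shared fragments (-0.00571). ETS matches differed by -0.0112 and -0.0634 in HE1 and by 0.00198 and 0.00402 in HE2, a distance of -0.0403. The HE1 value of replicate 1 was 0.0289 without the fragments common to Negative and Medium, but -0.0122 without both sets of shared fragments. The HE1 value of replicate 2 was -0.00423 without its Low library. EBOX matches differed by -0.00871 and -0.0479 in HE1 and by 0.0207 and 0.00844 in HB, a distance of -0.0429. In HE1 of replicate 1 the EBOX difference was 0.0233 without the fragments common to Negative and Medium, and -0.0202 without both sets of shared fragments. OCT matches differed by 0.000681 and 0.0202 in HE1 and by -0.00432 and -0.00301 in HP, a distance of 0.0141. In HE1 it was -0.00382 in replicate 2 without the Low library and -0.000857 in replicate 1 without the fragments shared with that library.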

How the results depend on the processing

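Of 113 values recomputed under an alternative, 84 were kept, 24 moved and 5 changed sign. Kept meant the same direction and side of the threshold or, for counts, a value within 1.5 times the main one. The share of regions positive in both replicates was kept if inside the Wilson interval of the main value. The share of Negative fragments that were also positive was kept if within 1 standard deviation of the replicates. Sizes often changed where the direction did not, over 21 to 120 bp for length, -1.97 to -0.42 percentage points for GC content, 667.5 to 2177 bp for distance and -2.49 to -0.24 percentage points for the intron share. The motif counts stayed at 0 in permutation tests that mostly could not pass 0.05. Alternatives chosen after seeing the data were those that leave out the Low library of replicate 2 or the fragments it shares with Negative of replicate 1, the pooling of replicates for the 4 fragment features, and the fit without a block for the effect against other stages. The difference in length was -8 bp with High alone as positive and -10.5 bp without Low of replicate 2. Leaving out each replicate in turn gave -12 to 120 bp for length, -1.97 to 0.11 percentage points for GC content, -218.5 to 1893.5 bp for the distance to a start site and -2.49 to -0.24 percentage points for the intron share. The 8 regions called became 15 without the fragments common to Negative and Medium of replicate 1, 0 with near copies counted once, 3 with High alone, 4 without the fragments common to Negative of replicate 1 and Low of replicate 2, 4 without that Low library, 5 without both sets of shared fragments, 4 to 4 with each replicate left out and 68 with no minimum. In all of these none had more positive fragments, the direction in which a call was hard to reach. The share of Negative fragments that were also positive, 63.5% as the mean of the replicates (55.8% to 71.3% with each replicate left out), became 30.4% without the fragments common to Negative and Medium, 4.76% with High alone, 49.0% without Low of replicate 2 and 30.3% without both shared sets. Regions positive in both replicates became 3.90%, 2.13% and 3.94% of positive regions without the fragments shared by Negative of replicate 1 and Low of replicate 2, without that Low library, and without both shared sets, and fragments in both replicates became 130 and 145 under the first and second of these. Without the fragments common to Negative and Medium of replicate 1, these values were 5.78% and 1801. Genes called in the limma fits went from 0 to 6 and, for the effect against other stages, to 5 when replicate 1 of HE1 was left out, each at 0 without replicate 2. HE1 positive fragments against other stages gave 0 and 15 genes with replicate 1 or 2 left out, 2 without Low of replicate 2 and 1 with log2 values and a pseudocount of 1. The cause of these moves was not tested. Without the replicate block, the pooled differences were 21 bp, -1.22 and -0.33 percentage points and 968.5 bp for length, GC content, intron share and distance, 3 regions were called (pooled exact test), and 0 genes were called in each limma fit, so that among calls only the count of regions changed. The motif test with High alone was not run. Small libraries of replicate 2, down to 1413 fragments, limit what a count of 0 there can say.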
